A study of Mus musculus with 6 samples.

Results

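Integrins are the receptors that hold cells to the matrix beneath and between them. The 10 genes described here were chosen by name and role, with earlier results of these data known: 9 integrin subunits that are studied in attachment of the embryo or in the grip of epithelium on its basement membrane, Itgav, Itgb3, Itgb5, Itgb6, Itgb8, Itgb1, Itga3, Itga6 and Itgb4, and Spp1, which encodes the secreted integrin ligand osteopontin. They are 10 of the 44788 genes in the deposited table, and all 10 were among the 16581 genes with enough reads to be tested. The libraries are bulk RNA-seq of endometrium, the lining of the uterus, from ICR mice, an outbred strain, sequenced as single-end reads on Ion Proton instruments. The GnRH agonist group (3 libraries) received Decapetyl, as the labels spell the drug, by intraperitoneal injection at 1.5 µg per 100 g body weight per day from day 3 to day 9 of estrus, and the group without GnRH agonist (3 libraries) received solvent.

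Every mouse in both groups had been dosed orally as a newborn with tamoxifen, 2.7 µmol/kg over postnatal days 2 to 5, a treatment used to produce adenomyosis, in which endometrial tissue grows into the muscle of the uterus. After 75 days 16 such mice were divided at random into 8 per arm, were mated 4 weeks later, and had their endometrium scraped off on the evening of day 4 of pregnancy. Uteri were used only where histology gave a diagnosis of adenomyosis, so both groups are adenomyotic and mice without tamoxifen are not part of the comparison. Whether each library came from its own mouse is not said in the labels, and the p-values therefore cover only the variation among these libraries, which may be technical in part. The comparison asks how the agonist left the receptive-stage endometrium of these mice.

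An integrin is a dimer of an α and a β subunit, and the pairing sets what it binds. The αv subunit pairs with β1, β3, β5, β6 or β8 and these receptors bind proteins with an RGD motif, among them osteopontin, fibronectin, vitronectin and, for αvβ6 and αvβ8, the latent form of TGF-β. The α3β1, α6β1 and α6β4 integrins bind laminins of the basement membrane, and α6β4 is the integrin of the hemidesmosome, the junction that anchors epithelium to it. In the mouse the embryo attaches to the luminal epithelium around the night of day 4, and integrins on that epithelium and osteopontin from the glands are long-studied markers of this time.

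The 6 libraries held 11720958 to 14104266 counted reads, 3 reads corresponded to 0.204 to 0.276 CPM, the count scaled to the size of the library, and 28089 genes had at least 1 read. The members' counts ran from 56 reads for Itgb8 to 6295 reads for Itgb1 in a single library. Epithelium was present in all 6 libraries: 15 epithelial marker genes summed to 6406 to 8714 CPM in the agonist libraries and to 10090 to 15630 CPM in the libraries without agonist, with no overlap. Of those 15 markers 12 were lower with agonist (10 when libraries were scaled by their totals alone), 7 of them at an unadjusted p under 0.05. The abundant keratins Krt7, Krt19 and Krt8 had log2 fold changes of -1.86, -1.15 and -0.88. Other epithelial genes lay nearer 0, at -0.29 for Epcam, -0.39 for Cdh1, -0.14 for Esrp1, 0.10 for Ocln and 0.26 for Grhl2, the last 5 and Krt8 being named after their values were seen. The 12 smooth muscle markers summed to 3490 to 13350 CPM with agonist and 8608 to 21550 CPM without, overlapping. All 12 were lower, 0 of them at an unadjusted p under 0.05. The 12 endothelium markers, all 12 higher, summed to 495 to 723 CPM with agonist and 396 to 464 CPM without. In such bulk tissue, fewer cells of a type and less RNA per cell cannot be told apart. Of 8 embryo and trophoblast markers, Cdx2, Pou5f1, Nanog and Prl3d1 were at 0 in all 6 libraries. The others had reads, and the list summed to 5.78 to 11.2 CPM with agonist and 4.98 to 6.80 CPM without. Library 3 of the group without agonist carried the highest smooth muscle sum, 21550 CPM, and several values below rest on it.

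With the agonist 9 of the 10 genes had a fitted value lower than without it, and Itgb4 and Itgb6 lay furthest below, at 2.01-fold and 1.83-fold lower. The exception, Itgb5, was level, and its fitted value was slightly below 0 with DESeq2's size factors. None passed the test across all genes. With edgeR's quasi-likelihood F-test and Benjamini-Hochberg adjustment over 16581 genes, 0 members had an adjusted p under 0.05, where the background of all genes was 0% called higher and 0% called lower. At an unadjusted p under 0.05, 3 of 10 members were lower (Itgb4, Itgb6 and Itgav), beside 5.09% of all genes tested, and 0 were higher, beside 4.17%. In 4 of 10 members (Itgb4, Itgb6, Itgav and Itgb1) all 3 agonist libraries lay below all 3 others, beside 7.61% of all genes, and in 0 members did they lie above, beside 6.94%. The median log2 fold change of the 10 members was -0.52, and that of all genes was 0.018. DESeq2 called 2 members lower at an adjusted p under 0.05 (Itgb4 and Itgb6) and 0 higher, beside 1.34% of its 18536 genes called lower and 0.852% called higher. The edgeR likelihood ratio test and limma-voom called 0 members. Over all genes, DESeq2 called 158 higher and 248 lower, the likelihood ratio test 104 higher and 164 lower, and limma-voom 0 in either direction.

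**Figure D1:**
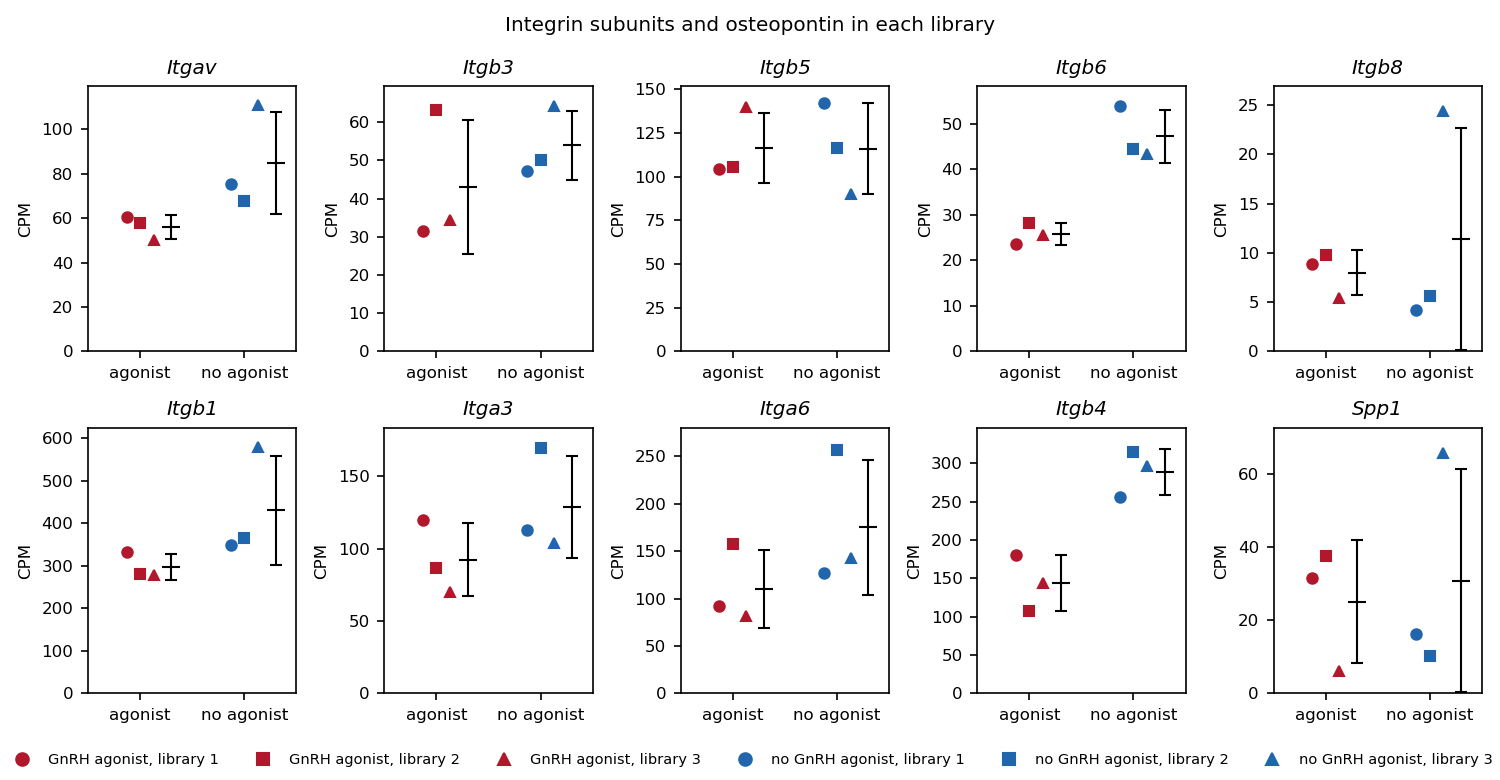
CPM (vertical axes, linear, from 0) of the 10 genes in each library, agonist at the left of each panel in red and no agonist at the right in blue, with the mean and SD of 3 libraries beside the points. Itgb4, Itgb6, Itgav and Itgb1 have all 3 agonist libraries below the others, and in Itgb8 and Spp1 a single library without agonist, library 3, stands highest at 24.4 and 65.8 CPM.

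Promoter sequences are shown for the separated members where held, and any link between them and the members' values was not tested. RefSeq windows of 250 bases before to 50 bases after a start were held for 7 of the 10 members, in 10 windows, and Itgb3, Itgb4 and Itga6 had none. Below are the windows of Itgb6 (chr2:60722554-60722853, minus strand), Itgav (chr2:83724147-83724446, plus strand) and Itgb1 (chr8:128685404-128685703, plus strand) on GRCm38.p6, each written 5′ to 3′ in the direction of the gene. Capitals mark matches, on either strand, to the E-box letters CANNTG, the Sp/KLF letters GGGCGG or the ETS letters AGGAAG.
Itgb6: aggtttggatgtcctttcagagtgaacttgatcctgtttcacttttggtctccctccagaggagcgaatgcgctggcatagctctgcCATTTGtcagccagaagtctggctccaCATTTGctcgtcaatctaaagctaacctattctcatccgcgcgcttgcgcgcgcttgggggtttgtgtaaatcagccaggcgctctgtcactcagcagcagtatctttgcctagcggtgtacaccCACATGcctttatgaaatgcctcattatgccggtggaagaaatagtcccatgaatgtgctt
Itgav: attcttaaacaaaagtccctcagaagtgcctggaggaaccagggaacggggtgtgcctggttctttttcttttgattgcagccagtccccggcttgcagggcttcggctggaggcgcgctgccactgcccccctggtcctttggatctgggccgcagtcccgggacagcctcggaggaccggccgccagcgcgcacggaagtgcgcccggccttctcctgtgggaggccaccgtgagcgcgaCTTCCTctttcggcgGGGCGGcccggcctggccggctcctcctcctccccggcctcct
Itgb1: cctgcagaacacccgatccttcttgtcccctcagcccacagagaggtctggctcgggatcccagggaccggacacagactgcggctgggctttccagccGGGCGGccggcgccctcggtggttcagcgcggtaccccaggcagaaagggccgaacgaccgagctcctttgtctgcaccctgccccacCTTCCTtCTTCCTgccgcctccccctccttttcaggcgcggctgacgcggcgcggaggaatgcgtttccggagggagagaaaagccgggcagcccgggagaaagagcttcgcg
The Itgb6 window held 3 E-box matches, a form found in 72.3% of 32851 mouse promoter windows, and a second Itgb6 start (chr2:60673644-60673943) held 3 E-box and 2 ETS matches. The Itgav window held 1 Sp/KLF and 1 ETS match and the Itgb1 window 1 Sp/KLF and 2 ETS matches, forms found in 35.7% and 35.4% of windows, and no 2 matches in these windows overlapped. The same search on both strands covered the AP-1 letters TGANTCA, found in 7.81% of windows and, among the members, in Itga3. The NF-Y letters CCAAT were found in 37.4% of windows and in those of Itga3, Itgb8 and Spp1. The letters TATAAA were found in 13.6% of windows and, among the members, in a window of Spp1, 211 bases before the start. The palindromic estrogen response element was found in 0.07% of windows and the progesterone or glucocorticoid response element in 0.0639%, and no member's window held either. A match is a string of letters and not a shown binding site.

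Itgb6, on chromosome 2 from 60598292 to 60722643 on the minus strand, encodes the β6 subunit, which pairs with αv alone and is made mainly by epithelium. It had 23.6, 28.3 and 25.5 CPM in the 3 agonist libraries and 54.0, 44.4 and 43.4 CPM in the 3 without agonist. The groups were well apart: the highest agonist library, at 28.3 CPM, stood under the lowest of the others, at 43.4 CPM. The log2 fold change was -0.87 ± 0.19 (SE, 95% interval -1.31 to -0.44), with an unadjusted p of 0.0018 and an edgeR adjusted p of 0.260. The difference stayed at an unadjusted p of 0.0107 or less under all 15 other settings and left-out libraries. DESeq2 gave an adjusted p of 0.0249, the lowest of a range that reached 0.659 over the alternatives.

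Itgav, on chromosome 2 from 83724397 to 83806916 on the plus strand, encodes the αv subunit. It had 60.4, 57.9 and 50.2 CPM with agonist and 75.4, 67.9 and 110.8 CPM without. All agonist libraries were lower, and library 3 without agonist stood well above the other two of its group. Its log2 fold change was -0.59 ± 0.23 (SE, 95% interval -1.13 to -0.06, unadjusted p 0.0341, edgeR adjusted p 0.503). With libraries scaled by their totals alone it was -0.42 with an unadjusted p of 0.0915. Without library 3 of the group without agonist it was -0.35 with an unadjusted p of 0.114, and leaving out any agonist library also took p over 0.05, to 0.0566, 0.0633 and 0.102. Itgav shares 634 exon bases with Gm13684 on the opposite strand in GENCODE M21, and because the strand setting of the counting is not given in the sources used here, reads there cannot be assigned with certainty.

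The other β partners of αv did not separate. Itgb3, on chromosome 11 from 104608000 to 104670476, encodes β3, whose αvβ3 dimer is the best-known integrin marker of the receptive human endometrium. It had 31.5, 63.2 and 34.4 CPM with agonist and 47.3, 50.1 and 64.2 CPM without. Agonist library 2 stood nearly as high as the highest of the other group, while the other two agonist libraries lay below all of it. The log2 fold change was -0.32 ± 0.30 (SE, unadjusted p 0.311), and without agonist library 2 it was -0.71 with an unadjusted p of 0.0167. Platelets also carry β3, as the partner of αIIb, and their 10 marker genes summed to 7.13 to 19.8 CPM with agonist and 8.44 to 19.6 CPM without, with Gp1ba at 0 in all libraries. What platelets added to Itgb3 was not tested.

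Itgb5, on chromosome 16 from 33829665 to 33949338, encodes β5, a vitronectin receptor subunit with αv. It had 104, 105 and 139.8 CPM with agonist and 142, 116 and 90.1 CPM without. The groups covered the same range and their means were 117 ± 20.1 and 116 ± 26.0 CPM (SD, n = 3 each), with and without agonist. The 95% interval of its log2 fold change ran from -0.54 to 0.55, so differences of that size either way were not resolved by 3 libraries. Itgb8, on chromosome 12 from 119158022 to 119238802, encodes β8, which with αv binds latent TGF-β. It had 8.83, 9.78 and 5.39 CPM with agonist and 4.23, 5.66 and 24.4 CPM without. Library 3 without agonist alone set the higher mean of that group: the log2 fold change was -0.51 ± 0.67 (SE) with it and 0.70 without it.

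Among the β partners of αv the balance between subunits was also read per length, since longer genes collect more reads. CPM were divided by the union of a gene's exons in GENCODE M21, in kb. Of the summed level of Itgb3, Itgb5, Itgb6 and Itgb8 per kb, Itgb6 made up 8.54%, 8.78% and 7.27% in the agonist libraries and 13.6%, 13.0% and 13.7% in those without agonist. The groups did not overlap, with means of 8.20% ± 0.811 and 13.4% ± 0.372 (SD, n = 3 each), and leaving out any library kept the difference between -5.52 and -4.77 percentage points. This share was computed after the values of Itgb6 had been seen and is a description with no test. Itgb5 was the largest part of the sum in both groups, at 73.7% ± 7.35 with agonist and 65.5% ± 7.63 without.

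Itgb1, on chromosome 8 from 128685654 to 128733200 on the plus strand, encodes β1, the partner of α3, α6, αv and many other α subunits in nearly every cell type. It had 332.6, 279.7 and 279 CPM with agonist and 348, 366 and 578 CPM without. Each agonist library lay below each of the others, by a small step of 333 against 348 CPM at the nearest point. The fitted log2 difference was -0.54 ± 0.26 (SE, 95% interval -1.14 to 0.07, unadjusted p 0.0747, edgeR adjusted p 0.582). Without library 3 of the group without agonist it was -0.26, with an unadjusted p of 0.272. Itgb1 and Itgav had a Pearson r of 0.962 over the 6 libraries, as a description. Both were lower in all agonist libraries and highest in library 3 without agonist, so this r includes the difference between the groups.

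Itgb4, on chromosome 11 from 115974709 to 116008412 on the plus strand, encodes β4, which pairs with α6 alone and ties the hemidesmosome to the keratin cytoskeleton. It had 180.0, 107 and 144 CPM with agonist and 256, 315 and 297 CPM without. The groups were far apart, with 180.0 CPM in the highest agonist library and 256 CPM in the lowest of the others. The log2 fold change was -1.01 ± 0.24 (SE, 95% interval -1.57 to -0.44, unadjusted p 0.00359, edgeR adjusted p 0.304). Its unadjusted p was 0.0135 or less under all 15 alternatives. DESeq2 gave an adjusted p of 0.0197, the lowest of a range that reached 0.703 over the alternatives. B230344G16Rik, on the opposite strand, shares 537 exon bases with it and had 3 counts in all libraries together.

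Itga6, on chromosome 2 from 71745616 to 71858416 on the plus strand, encodes α6, which pairs with β4 or β1. It had 91.7, 157 and 81.2 CPM with agonist and 127, 257 and 142 CPM without. Library 2 was the highest in each group, and agonist library 2 alone made the groups overlap. For Itga6 the log2 fold change was -0.67 ± 0.36 (SE, unadjusted p 0.101), -1.02 without agonist library 2 (unadjusted p 0.0259) and -0.28 without library 2 of the other group. Itga3, on chromosome 11 from 95044474 to 95076801, encodes α3, a laminin receptor subunit of epithelium with β1. It had 119.9, 86.7 and 70.3 CPM with agonist and 113, 169.6 and 104 CPM without, and agonist library 1 reached into the range of the others. For Itga3 the log2 fold change was -0.48 ± 0.28 (SE, unadjusted p 0.126), -0.70 without agonist library 1 (unadjusted p 0.0470) and -0.23 without library 2 of the group without agonist.

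Spp1, on chromosome 5 from 104435118 to 104441050 on the plus strand, encodes osteopontin, a ligand of αvβ3, αvβ5 and αvβ6 that is made by glands, macrophages and decidual NK cells. It had 31.5, 37.6 and 6.0 CPM with agonist and 16.3, 10.4 and 65.8 CPM without. The libraries varied more within each group than the group means differed, 25.1 ± 16.8 CPM with agonist and 30.8 ± 30.4 CPM without (SD, n = 3 each). The log2 fold change was -0.30 ± 0.81 (SE, 95% interval -2.19 to 1.60, unadjusted p 0.726). It was 0.92 without library 3 of the group without agonist and 0.17 without agonist library 3, so its direction rested on single libraries. The macrophage markers, of cells that make osteopontin, summed to 503 to 1011 CPM with agonist and 897 to 2556 CPM without, all 10 tested markers being lower, with Adgre1 not a row of the table. Cd14 was the largest single part of that sum in every library. Without it, a step added after the values were seen, the sum was 393, 494 and 308 CPM with agonist and 800.2, 196 and 554 CPM without, overlapping, and 6 of the 9 markers left had an unadjusted p over 0.5. The gland markers summed to 41.2 to 195 CPM with agonist and 26.4 to 47.6 CPM without, overlapping, and all 4 tested had fitted values above 0. Agonist library 1, at 41.2 CPM, lay within the range of the sums without agonist. Foxa2, named after its values were seen, was level, at 14.5 ± 6.37 CPM with agonist and 13.9 ± 4.11 without (SD, n = 3 each). The part of either cell type in the Spp1 values was not tested. Spp1 followed Itgb8 across the 6 libraries (Pearson r 0.837) and ran opposite to Itgb5 (Pearson r -0.852), as descriptions. Spp1 shares 309 exon bases with Gm42793 on the same strand, where read assignment is uncertain.

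**Figure D2:**
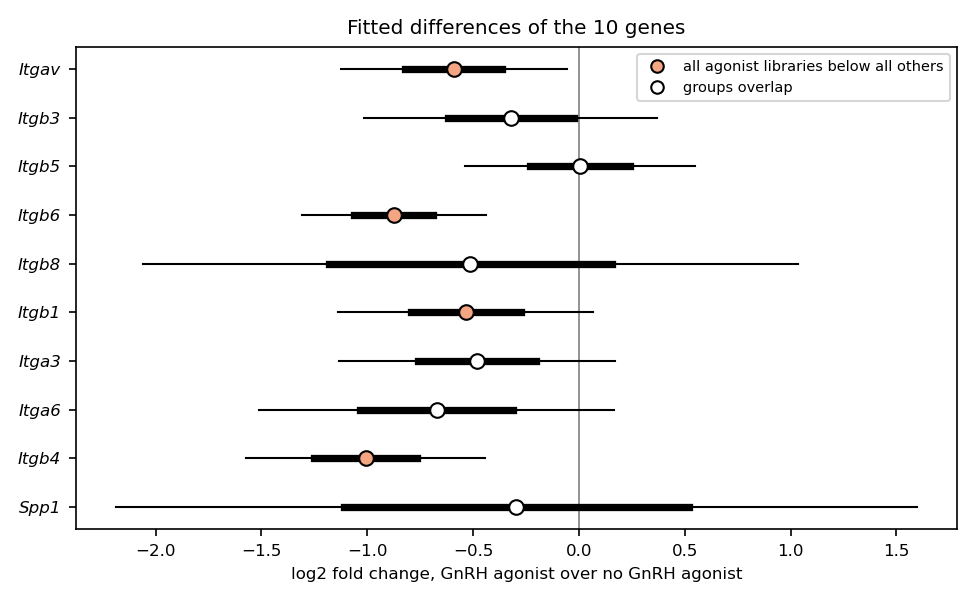
Fitted log2 fold change, agonist over no agonist (horizontal axis), of the 10 genes, with thick bars of 1 SE and thin bars of the 95% interval. Filled points mark genes whose 3 agonist libraries all lie below the 3 others. Itgb4 at -1.01 and Itgb6 at -0.87 lie furthest from 0 relative to their intervals, and the intervals of Itgb8 and Spp1 are the widest.

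Per kb of exon the order of levels was led by Itgb1, which had 72.8 ± 7.51 CPM per kb with agonist and 105.5 ± 31.4 without (SD, n = 3 each) and was the highest member in all 6 libraries. Itgb5 had 32.8 ± 5.67 with agonist and 32.7 ± 7.31 without, and Itgb4 had 20.5 ± 5.21 with agonist and 41.2 ± 4.28 without, so that Itgb5 was the second highest mean with agonist and Itgb4 the second highest without. Itga3, Itga6 and Spp1 had 16.2, 12.2 and 15.2 CPM per kb with agonist and 22.6, 19.4 and 18.7 without. Their ranges over the libraries overlapped in each group, and levels were not tested between genes. Spp1 varied most of the 3, with an SD of 10.2 CPM per kb with agonist and 18.5 without. Itgb3 had 7.30 ± 2.97 with agonist and 9.13 ± 1.53 without, close to Itgav at 5.23 ± 0.498 with agonist and 7.88 ± 2.13 without. Itgb6 had 3.62 ± 0.330 with agonist and 6.65 ± 0.819 without, and Itgb8 was lowest at 0.723 ± 0.209 with agonist and 1.03 ± 1.02 without. The exon length of each gene comes from GENCODE and not from the counting, so levels between genes are approximate. The ratio of Itgb6 to Itgav differed by -0.31 on the log2 scale with an exact two-sided permutation p of 0.3. The ratio of Itgb4 to Itga6 differed by -0.37 (exact permutation p 0.5). It was 2.53, 0.875 and 2.29 with agonist and 2.60, 1.58 and 2.68 without. None of the 8 ratios of subunit pairs separated the groups, and their adjusted p, by the exact test, was 0.914 or 1. The smallest p that 3 against 3 libraries allow is 0.1, so no ratio could have reached an adjusted p under 0.05. The share of other gene pairs whose ratios separate the groups was not computed.

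**Figure D3:**
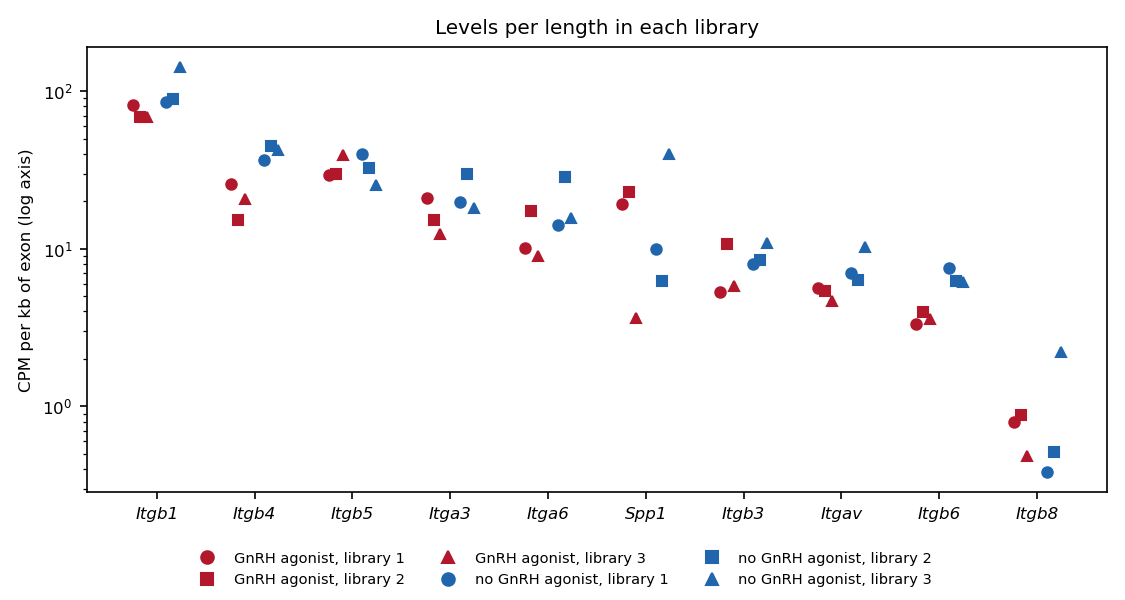
CPM per kb of exon (vertical axis, log scale) of the 10 genes in each library, agonist in red left of no agonist in blue. Itgb1 lies highest in every library, at 68.4 or above, and Itgb8 lies lowest.

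Several of these integrins are prominent on epithelium, so the members were also divided by the summed epithelial markers. Relative to that sum 0 of 10 members separated the groups. The share of all genes that separate on this scale was not computed, so this count has no background beside it. The difference in log2 ratio was -0.14 for Itgb6 (exact two-sided permutation p 0.8) and -0.30 for Itgb4 (exact permutation p 0.3). It was 0.17 for Itgav, 0.23 for Itgb1, 0.25 for Itga3, 0.07 for Itga6 and 0.75 for Itgb5. With the mean log2 CPM of the 15 markers in place of their sum, all these differences were lower: -0.31 for Itgb6 (exact permutation p 0.3) and -0.47 for Itgb4, whose groups then separated (exact permutation p 0.1, the smallest possible). The part that the epithelial content had in the members' lower CPM was not tested beyond these ratios. The basal and squamous epithelium markers, relevant to Itgb4 and Itga6, summed to 66.4 to 780 CPM with agonist and 298 to 828 CPM without, overlapping. Of the 7 tested, 4 were higher and 3 lower. In 1 of the 7 all 3 agonist libraries lay below the others, beside 7.61% of all genes.

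The genes around the members were described from 8 lists, and the quasi-likelihood test called 0 genes in each of them. DESeq2 called 1 gene of the other integrins lower, 1 αv ligand higher and 1 lower, and 3 basement membrane genes lower and 1 higher, and 0 in the other 5 lists. The laminins that α3β1 and α6β4 bind included larger differences than any of the members. Lama3, an α chain of epithelial laminin, had 46.9, 13.4 and 25.3 CPM with agonist and 82.0, 59.3 and 142 CPM without, with a log2 fold change of -1.73 ± 0.50 (SE, unadjusted p 0.00878, edgeR adjusted p 0.354). Lamb3, a β chain found with it, had 54.2, 17.4 and 30.7 CPM with agonist and 85.1, 69.0 and 86.1 CPM without, with a log2 fold change of -1.23 ± 0.38 (SE, unadjusted p 0.0130, edgeR adjusted p 0.395), and was named after its values were seen. In both genes all 3 agonist libraries lay below the others.

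The broader list of 26 laminins and other basement membrane genes was not uniform: 14 were higher and 12 lower, with a median log2 fold change of 0.059. At an unadjusted p under 0.05, 5 were lower and 2 higher. The lower ones also included Lama1 (1.29 ± 0.553 CPM with agonist and 4.41 ± 0.756 without, SD, n = 3 each) and Lama5 (322 ± 133 and 627 ± 190 CPM, with and without agonist), which was named after its values were seen. Lamc3, the γ3 chain, was higher, at 3.69, 14.3 and 14.2 CPM with agonist and 3.77, 2.09 and 2.02 CPM without, with agonist library 1 among the others. Nid2, a linker of laminin and collagen, had 18.8 ± 1.96 CPM with agonist and 10.1 ± 2.37 without, also named after its values were seen. The ubiquitous chains Lamb1 and Lamc1 and the collagens Col4a1 and Col4a2, all named after their values were seen, had log2 fold changes of -0.05, 0.30, -0.15 and -0.11. Over the 15 alternatives the unadjusted p of Lama5 reached 0.05 or more in 5, and that of Lama1, Lama3, Lamb3, Lamc3 and Nid2 in 0.

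**Figure D4:**
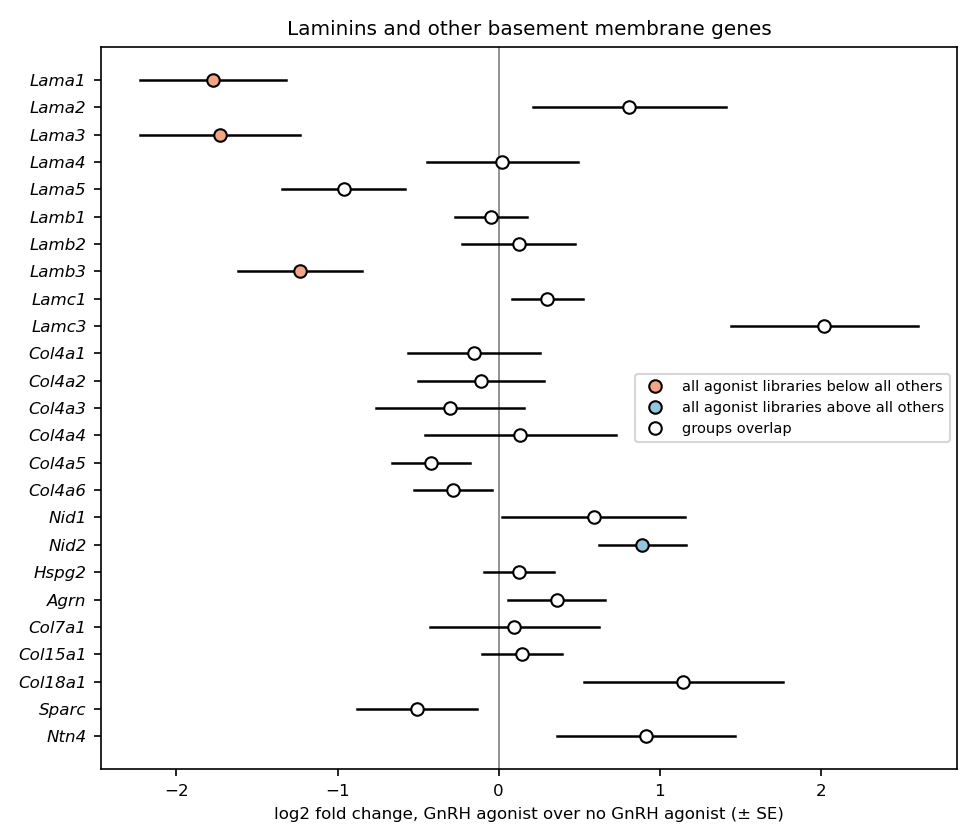
Log2 fold change, agonist over no agonist, with its SE (horizontal axis), of laminin, collagen and other basement membrane genes reported here. Orange points have all agonist libraries below the others, and the blue point, Nid2, has them all above. Lama3 and Lamb3 lie at -1.73 and -1.23, and Col4a1 and Col4a2 near 0.

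The 6 hemidesmosome partners were examined beside Itgb4 and Itga6. Plec, plectin, which links β4 to keratin, had 281 ± 48.9 CPM with agonist and 472 ± 107 without (SD, n = 3 each, unadjusted p 0.0209), and its agonist libraries lay below the others. Cd151, the tetraspanin that binds α3 and α6 integrins, also separated, at 152 ± 16.1 CPM with agonist and 183 ± 6.59 without, but its unadjusted p was 0.193. Over the 6 genes 3 were higher and 3 lower. Of 7 tetraspanin partners 4 were higher and 3 lower (6 and 1 when scaled by library totals alone), with Cd81 at 331 ± 40.5 CPM with agonist and 473 ± 56.2 without (unadjusted p 0.0430). The unadjusted p was 0.05 or more under 5 of 15 alternatives for Plec and 9 of 15 for Cd81.

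Among the receptors for laminin and osteopontin other than integrins, 4 of 6 were higher (all 6 when scaled by library totals alone, and 5 with upper-quartile factors). Sdc4, syndecan-4, a matrix co-receptor, had 279, 333 and 442 CPM with agonist and 199, 201 and 141 CPM without, with a log2 fold change of 0.96 ± 0.26 (SE, unadjusted p 0.00629). Bcam, a receptor for the laminin α5 chain, had 213, 187 and 203 CPM with agonist and 164, 129 and 72.8 CPM without (log2 fold change 0.72 ± 0.30, SE, unadjusted p 0.0437). Both were above all others in all 3 agonist libraries. Without library 3 of the group without agonist the value of Bcam was 0.46, and its unadjusted p was 0.05 or more under 5 of 15 alternatives, against 0 for Sdc4.

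Of 21 other αv ligands 16 were tested, 8 higher and 8 lower (10 and 6 when scaled by library totals alone). Adam9, a membrane metalloprotease with an integrin-binding domain, had 68.2 ± 13.6 CPM with agonist and 131 ± 26.6 without (SD, n = 3 each), a log2 fold change of -0.94 (unadjusted p 0.00407). Tgfbi, an RGD-bearing matrix protein induced by TGF-β, had 81.6, 603 and 554 CPM with agonist and 115, 29.8 and 47.8 CPM without, so agonist libraries 2 and 3 were high and library 1 was not. Of the 9 genes of latent TGF-β and its keepers, 6 were higher and 3 lower (8 and 1 when scaled by library totals alone, 7 and 2 with upper-quartile factors). Nrros, which tethers latent TGF-β on macrophages and microglia, had 18.2, 40.9 and 17.0 CPM with agonist and 11.5, 11.2 and 11.3 CPM without, a log2 fold change of 1.16 (unadjusted p 0.0151) that was 0.63 without agonist library 2 (unadjusted p 0.0498).

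In the cytoplasmic adhesion complex 27 of 33 genes tested were lower and 6 higher, with a median log2 fold change of -0.27. Scaled by library totals alone they were 22 and 11, with a median of -0.10. At an unadjusted p under 0.05, Vcl, vinculin, was lower (log2 fold change -0.70), and Tln2 and Tns3, a talin and a tensin, were higher (0.66 and 0.63). These 3 were marginal: the unadjusted p was 0.05 or more under 6 of 15 alternatives for Vcl, 4 for Tln2 and 8 for Tns3, whose value was 0.40 without agonist library 3. In the other 16 integrin subunits tested 9 were higher and 7 lower. Itgam, the αM subunit of myeloid cells, had 97.4, 25.1 and 15.0 CPM with agonist and 347, 224 and 455 CPM without (log2 fold change -2.90 ± 0.70, SE, unadjusted p 0.00345). Its sole partner, Itgb2, named after its values were seen, overlapped between the groups, at 15.7, 14.6 and 13.8 CPM with agonist and 25.2, 6.35 and 12.0 CPM without. Gm49368 shares 3450 exon bases with Itgam on the same strand, so the Itgam counts are uncertain. Itgal, the lymphocyte αL subunit, was higher, at 10.4 ± 2.54 CPM with agonist and 4.30 ± 1.68 without, and the NK and T cell markers, all 9 tested being higher, summed to 25.0 to 57.4 CPM with agonist and 10.1 to 24.1 CPM without.

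Across 12874 genes of at least 5 CPM on average, those whose log2 CPM followed a member most closely over the 6 libraries were found by Pearson correlation. For Itgb6 they were Saysd1, Acss2, Armcx3, Iba57 and Ftl2 (r 0.987 to 0.999), and for Itgb4 they were Mink1, Tnk1, Aak1 and Esyt3 (r 0.982 to 0.996). Each of these genes, like Itgb6 and Itgb4, had all agonist libraries below the others, so these r include the difference between the groups. For Itgb3 the closest was Dnajb12 (r 0.992), and for Spp1 it was St3gal5 (r 0.991). These are the extremes of a search over many genes with 6 points each, given as descriptions. Between members, Itgb6 and Itgb4 had an r of 0.78, and the points share their libraries.

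**Figure D5:**
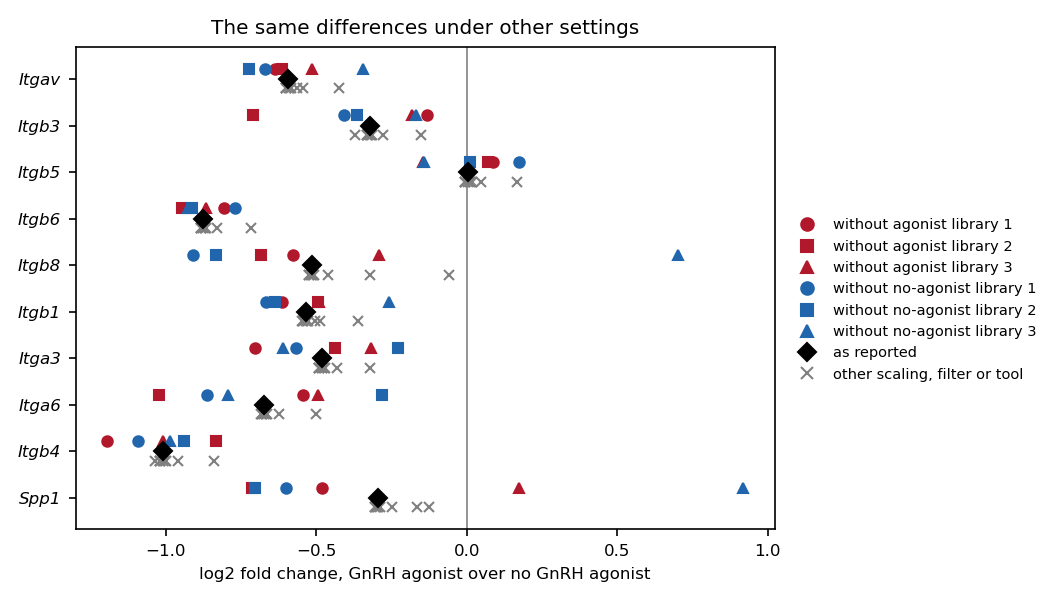
Log2 fold change, agonist over no agonist (horizontal axis), of the 10 genes as reported (black diamonds), with each library left out in turn (coloured symbols) and under other scalings, filters and tools (grey crosses). Itgb4 and Itgb6 stay below 0 throughout, and Itgb8 and Spp1 cross 0 when library 3 without agonist is left out, to 0.70 and 0.92.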

How the data were processed

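RNA of scraped endometrium was sequenced on Ion Proton, and the authors deposited 1 table of read counts per gene, made with HTSeq 0.6.1 on mm10 (GRCm38) per the submitters' processing notes. No source used here gives the aligner, the gene annotation or the strand setting of the counting, and antisense or overlapping reads can therefore be misassigned. The labels give 3 libraries per group. They give no replicate numbers shared between groups.

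The deposited counts were analysed in R 4.3.3 with edgeR 4.0.16: filterByExpr, TMM scaling, quasi-likelihood F-test, adjusted by Benjamini-Hochberg over 16581 genes. The SE is the log2 fold change divided by the square root of F. CPM are counts scaled to the TMM-adjusted library size. Alternatives used DESeq2 1.42.0, limma 3.58.1 and other scalings and filters, and each library left out in turn. Subunit ratios and epithelium-relative values used an exact two-sided permutation test over the 6 libraries. Exon lengths and overlaps come from GENCODE M21, promoter windows from RefSeq on GRCm38.p6. The scripts were tested on simulated data.

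The members and gene lists were chosen with earlier results of these data known. Named genes are the 10 members and, of each list, up to 4 with the smallest unadjusted p, narrowed after seeing values to those under 0.05 with Cd151 kept. Genes named outside that rule are marked in the text. The Itgb6 share was added after the values were seen. Some genes that these rules name are not reported here, though list counts include them.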

Additional observations from a re-analysis of the deposited data

How the results depend on the processing

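Itgb4 and Itgb6 were lower under all 15 alternatives. Counts over all genes moved most. Called higher were 8 without a low-count filter, 104 by the edgeR likelihood ratio test and 158 by DESeq2, and called lower were 28, 164 and 248 under the same settings, against 0 by the quasi-likelihood test. DESeq2 called 2 members lower. Leaving out a library gave 0 to 1 called lower, the 1 without library 2 of the group without agonist. At an unadjusted p under 0.05, library totals alone gave 1192 higher and 520 lower and no filter gave 1054 higher, against 691 higher and 844 lower as reported; leaving out a library gave 528 to 888 higher and 535 to 1093 lower, the lowest without agonist library 3. Library totals alone shifted the all-gene median to 0.183 on the log2 scale, against 0.018 as reported.

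Members lower at an unadjusted p under 0.05 numbered 2 to 4 over the alternatives. Itgb5 changed sign with DESeq2 median-ratio factors (-0.0040), without the filter (-0.0045) and with DESeq2 (-0.0052), and ran from -0.15 to 0.17 with a library left out. With a library left out, log2 values ran from -0.91 to 0.70 for Itgb8 and from -0.71 to 0.92 for Spp1. The ratio differences ran from -0.0033 to 0.13 for Itgb1 to Itgav, -0.11 to 0.42 for Itgb3 to Itgav, -0.65 to 0.11 for Itgb4 to Itga6, -0.25 to 0.51 for Itgb1 to Itga6 and -0.33 to 0.35 for Itgb1 to Itga3. Relative to epithelium markers they ran from -0.14 to 0.39 for Itgav, -0.34 to 0.11 for Itgb6, -0.029 to 0.48 for Itgb1, -0.21 to 0.28 for Itga6 and -0.20 to 1.31 for Spp1. With the mean log2 CPM of the markers in place of their sum, Itgav was -0.0028 and Itga6 -0.10. The cause of these changes was not tested.

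No paired analysis was possible because the labels share no replicate numbers between the groups. With 3 libraries per group, 95% intervals of most members span 1 log2 unit or more, which limits the differences these libraries can resolve. Exon lengths do not follow the isoforms present, and intervals cover only the variation among these libraries. RNA levels do not give integrin protein or its place on the cell.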

Other observations

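Several genes differed widely within the agonist group. Agonist library 1 stood near the libraries without agonist, and agonist libraries 2 and 3 stood above all others. The gland chemokine Cxcl15 had 1.36, 82.2 and 69.8 CPM in agonist libraries 1, 2 and 3 and 0.755, 1.04 and 0 CPM in the libraries without agonist. Aldh1a1, a retinaldehyde dehydrogenase of glands, had 8.66, 72.0 and 90.2 CPM with agonist and 13.1, 25.1 and 10.8 CPM without. Mme, a peptidase of stroma, had 25.7, 98.6 and 141 CPM with agonist and 28.7, 43.9 and 24.3 CPM without. Among the integrin ligands and laminins, Tgfbi and Lamc3 shared this split. These genes were picked after their values were seen, and no test was made of the split. Agonist library 1 also differed in make-up: its smooth muscle markers summed to 13350 CPM, against 3490 and 4228 CPM in agonist libraries 2 and 3. The ribosomal RNA row Rn18s-rs5 held 1.94% of its counts, against 0.25% and 0.37% in agonist libraries 2 and 3. In libraries 1, 2 and 3 without agonist it held 0.36%, 3.31% and 0.35%. The part of either in the split was not tested.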
